A study of Mus musculus with 6 samples.

Results

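Glycolysis turns glucose into pyruvate, and pyruvate either becomes lactate or enters mitochondria for oxidation. The genes described here are 38 mouse genes of this route, listed by name: the enzymes from hexokinase to pyruvate kinase, lactate dehydrogenase, the regulators that set the level of fructose 2,6-bisphosphate, the mitochondrial pyruvate carrier, and the pyruvate dehydrogenase complex with its kinases and phosphatases. All 38 were found among the 55401 genes of the deposited expression table, 34 under their current symbol and 4 under an older one (Tigar, Pkm, Mpc1 and Mpc2). The libraries came from cultures labelled as female germline stem cells (FGSCs) of C57BL/6 mice, kept for more than 20 passages on mitotically inactivated STO fibroblast feeders. The control group of 3 libraries had no treatment, and the metformin group of 3 libraries had received 1 μM metformin for 24 h. The medium of both groups held fetal bovine serum, leukemia inhibitory factor, EGF, bFGF, GDNF, glutamine and pyruvate. Nothing in the labels says whether the repeats were separate cultures of this line, so a p-value measures the spread between these libraries, which may be technical.

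Hexokinase traps glucose in the cell as glucose 6-phosphate, and phosphofructokinase commits it to glycolysis. Phosphofructokinase is stimulated by fructose 2,6-bisphosphate, which the PFKFB enzymes make and break down and which TIGAR removes. Pyruvate kinase ends the pathway, lactate dehydrogenase regenerates NAD+ by reducing pyruvate, and pyruvate dehydrogenase, switched off by its kinases (PDK) and on by its phosphatases (PDP), opens the way to the citric acid cycle. Metformin is a biguanide that is known for slowing mitochondrial respiratory complex I and for lowering glucose production by the liver.

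Levels are FPKM, a fragment count scaled to exon length and to the mapped fragments of each library. The depth was estimated at 13400000 to 14040000 fragments per library from the steps between low values, so that 3 fragments on 1 kb of exon, taken as the smallest amount that can be told from 0, were worth 0.214 to 0.224 FPKM, a limit that covers counting error only. Markers did not match the label: 0 of 6 germ cell markers reached a mean of 1 FPKM and 3 of them were listed at 0 in all 6 libraries, while 11 of 12 blood cell markers did, with sums of 482 to 496 FPKM in the control and 490 to 501 FPKM in the metformin group. No feeder (12 listed), muscle (8) or neuron (6) marker reached a mean of 1 FPKM. Of 9 erythroid markers 7 were found, and 1 of them reached this level, with a mean of 12.7 FPKM. Fewer cells of one type and less RNA per cell cannot be told apart in such bulk libraries.

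Most of the route was expressed, and 4 genes (Ldha, Pkm, Aldoa and Tpi1) made up 68.7% of its summed FPKM. Of the 38 genes, 32 averaged 1 FPKM or more and were tested, and 6 did not reach this level (Hk3, Aldoc, Pklr, Ldhb, Pdk2 and Pdk4). The summed FPKM of the 38 genes was 2320, 2318 and 2330 in the control and 2404, 2375 and 2383 in the metformin libraries, or 0.725% to 0.750% of all FPKM. Ldha had the highest mean of the 38 genes, 577 FPKM, followed by Pkm with 423, Aldoa with 362 and Tpi1 with 255 FPKM. Summed over the isozymes of a step, hexokinase reached a mean of 103 FPKM, phosphofructokinase 98.5, aldolase 363 and enolase 87.4 FPKM. At 10.1 FPKM, Gapdh, the enzyme that couples oxidation of a triose to phosphate uptake, stood far below its neighbours in the pathway, with Aldoa 35.7-fold higher (31.7-fold to 38.3-fold in single libraries).

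**Figure D1:**
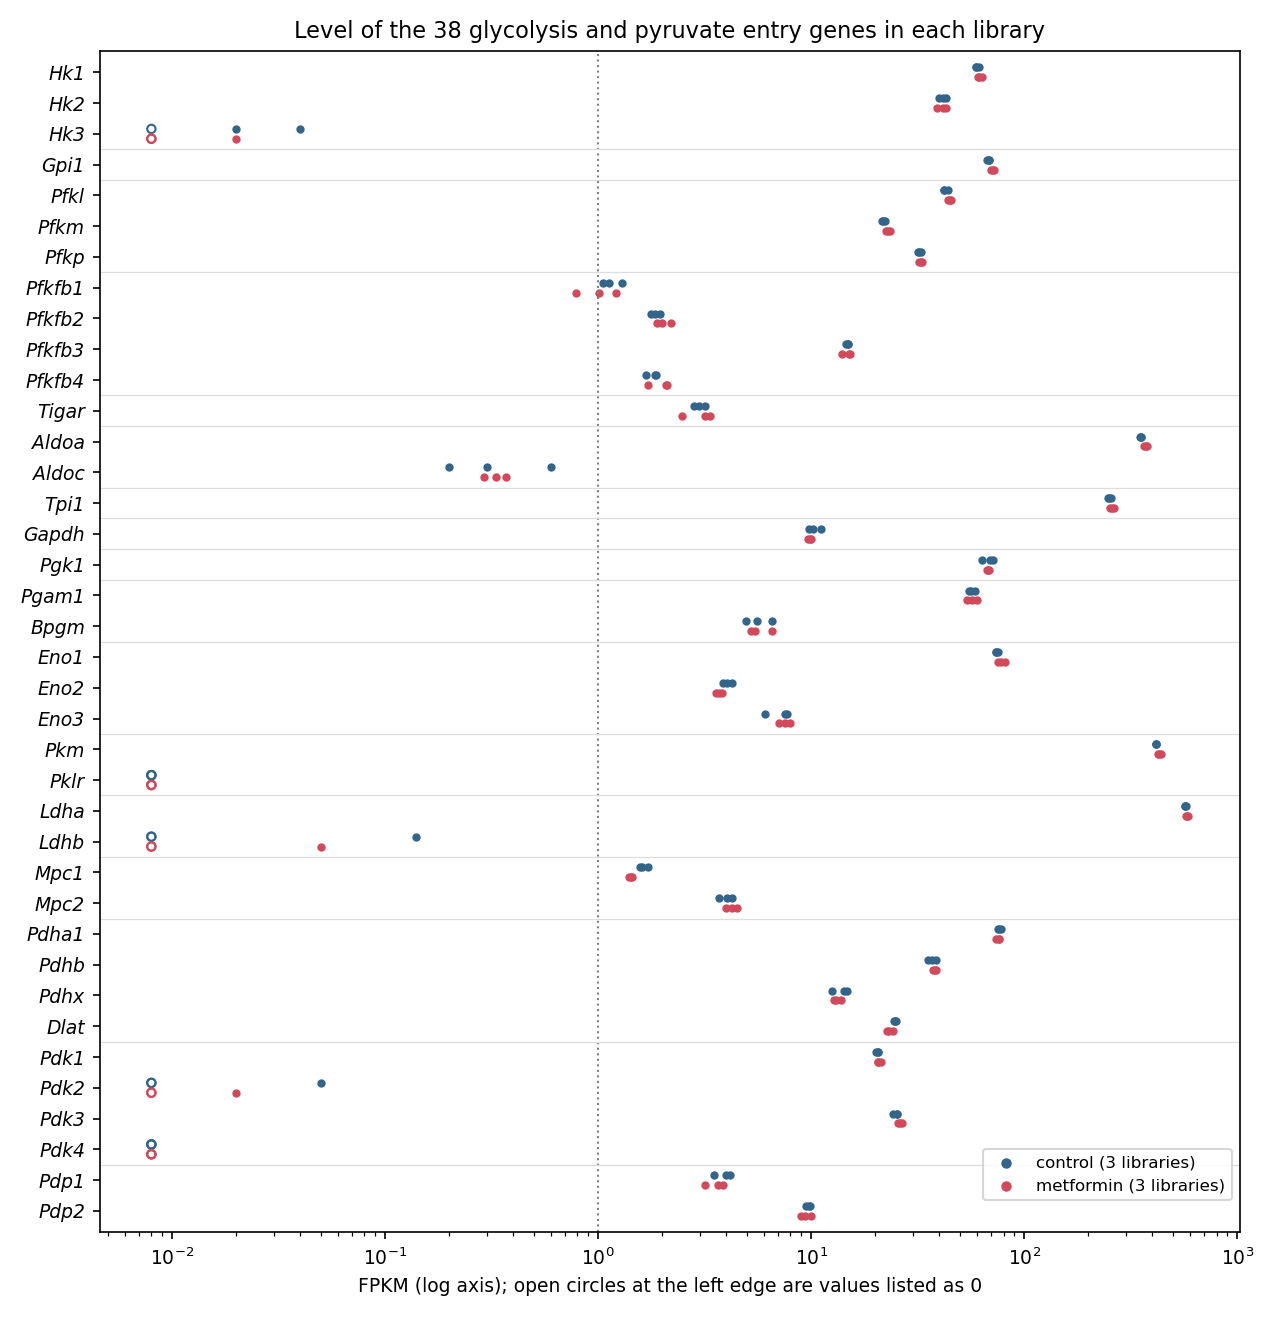
Level of each of the 38 genes in each library, as FPKM on a log axis, with control libraries in blue and metformin libraries in red, grey lines between families and a dotted line at 1 FPKM, the mean needed for testing. Ldha, Pkm, Aldoa and Tpi1 lie at 246.90 FPKM or more in every library, Gapdh lies near 10 FPKM, and open circles are values listed as 0.

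Gapdh has many near-identical copies in the mouse genome. The gene lies at chr6:125161715-125166467 (GRCm38). Its coding sequence of 1002 bases had 173 other loci in the genome with at least 90% identity over at least 200 bases, and every window of 50 bases in it, like every window of 100, also occurred elsewhere (NCBIM37, exact match). Of these loci, 65 are genes of the deposited table, and 40 of them had a value above 0. The highest was the pseudogene Gm13394 (chr2:28933610-28934609, GRCm38), with 1389, 1359 and 1337 FPKM in control repeats 1 to 3 and 1365, 1434 and 1441 FPKM in metformin repeats 1 to 3. In FPKM it stood 137-fold above Gapdh, which had 11.17, 9.78 and 10.24 FPKM in the control and 10.03, 9.90 and 9.71 FPKM in the metformin libraries. Estimated from FPKM and exon length, this was about 24011 fragments per library for Gm13394 and about 316 for Gapdh.

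Gm13394 differs from the Gapdh coding sequence at 1 of 1002 bases, the substitution A346C, with positions counted from 1 at the first base of the start codon. The 30 bases around this position are shown because they are the only coding stretch that tells both genes apart, with the differing base in capitals.
Gapdh: agggtggagccaaaAgggtcatcatctccg
Gm13394: agggtggagccaaaCgggtcatcatctccg
The form of Gapdh occurred 56 times in the genome and that of Gm13394 occurred 1 time. A fragment from within the coding sequence that does not cover this base fits both genes. How fragments with several matches were assigned is not given in the sources used here, and whether the fragments listed for Gm13394 came from Gapdh mRNA was not tested, since the table holds no reads.

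Splice junctions show the same overlap, because a copy that arose from spliced RNA carries the joined exons as 1 block of genome. Each sequence below joins 15 bases of one exon, in lower case, to 15 bases of the next, in capitals, near the middle of the coding sequence.
Gapdh exons 4 and 5: gtggaagggctcatgACCACAGTCCATGCC
Pgk1 exons 6 and 7: ggctatcttgggaggCGCTAAAGTTGCAGA
Ldha exons 4 and 5: tcgtctccaatccagTGGATATCTTGACCT
Hk1 exons 11 and 12: caagatgcacccacaGTATTCCCGGCGGTT
The joined form of Gapdh occurred 36 times in the genome, that of Pgk1 2 times, that of Ldha 1 time and that of Hk1 0 times. A primer pair that the study used for Gapdh in qRT-PCR is affected in the same way.
Gapdh forward primer: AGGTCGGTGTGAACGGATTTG
Gapdh reverse primer: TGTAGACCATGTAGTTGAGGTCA
The forward primer covers coding positions 8 to 28 across exons 2 and 3 of 7, and the reverse primer matches positions 108 to 130 in exon 3. The only differing base of Gm13394, at position 346, lies outside the stretch between them.

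Among the other genes, the size of the overlap varied widely. Of the 38 coding sequences, 14 had at least 1 such other locus and 22 shared no window of 50 bases with the rest of the genome, among them Hk1, Hk2, Pfkl, Pfkm, Pfkp, all 4 PFKFB genes, Tigar, Dlat and Pdk1 to Pdk4. All windows of Pgk1 and of Pgam1 also occurred elsewhere, although the copies in the table with the most signal, Pgk1-rs7 and Pgam1-ps2, had only 3.20 and 4.17 FPKM beside 67.7 FPKM for Pgk1 and 56.8 FPKM for Pgam1. For Ldha 30.8% of the windows were shared, for Pkm 43.2%, for Aldoa 17.1% and for Tpi1 13.98%. The copies of Ldha in the table together had a mean of 4.995 FPKM and those of Aldoa 0.0350 FPKM. Of the 5 other loci of Pkm, only 1 was a gene of the table, and it was listed at 0.

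Eno1, the main enolase, shared 83.4% of its windows. Its copies Gm13699 (chr2:80837141-80838442) and Gm5506 had means of 312 and 255 FPKM, above the 76.2 FPKM of Eno1 itself. The copies have shorter exons, and in fragments the gap was smaller. Estimated from FPKM and exon length, they had about 7058 and 6209 fragments per library, beside about 5673 for Eno1. Gm13699 differs from the Eno1 coding sequence at 5 of 1305 bases and Gm5506 at 8. The 30 bases around the first of these differences, T726C, are shown with that base in capitals.
Eno1: gaccaggttgtcatTggcatggatgtggct
Gm13699: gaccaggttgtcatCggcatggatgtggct
The Eno1 form occurred 1 time in the genome and the other form 3 times. Mpc1, a subunit of the mitochondrial pyruvate carrier, had a mean of 1.53 FPKM, while the short gene Gm3452 (chr12:110858565-110858894), which matches 255 bases of Mpc1 without a difference, had 67.9 FPKM. In fragments this was about 310 per library for Gm3452, beside about 44 for Mpc1. Gm1840, a copy of Gpi1 with 98.7% identity over 1046 bases, had 23.4 FPKM beside 69.6 FPKM for Gpi1.

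When the fragments of all copies in the table were counted with the gene, by exon length, Gapdh went from 10.1 to 789 FPKM and became the highest of the 38 genes, and Eno1 went from 76.2 to 255 FPKM. The exon lengths were those of GENCODE M1, with 1251 bases for Gm13394 and 1636 for Gm13699. These are longer than the spans given above for both copies, which raises the summed values of Gapdh and Eno1. The sums were divided by all annotated exon bases of each gene, 2253 for Gapdh and 5379 for Eno1, and a long divisor lowers them. Whether the summed values are too high or too low was not determined. Mpc1 went from 1.53 to 12.3 FPKM and Gpi1 from 69.6 to 76.9 FPKM. The other genes with copies in the table moved by less: Pgam1 from 56.8 to 58.6, Pgk1 from 67.7 to 69.5 and Ldha from 577 to 579 FPKM. The order of the steps by level therefore depends on how copies are treated at GAPDH and enolase.

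**Figure D2:**
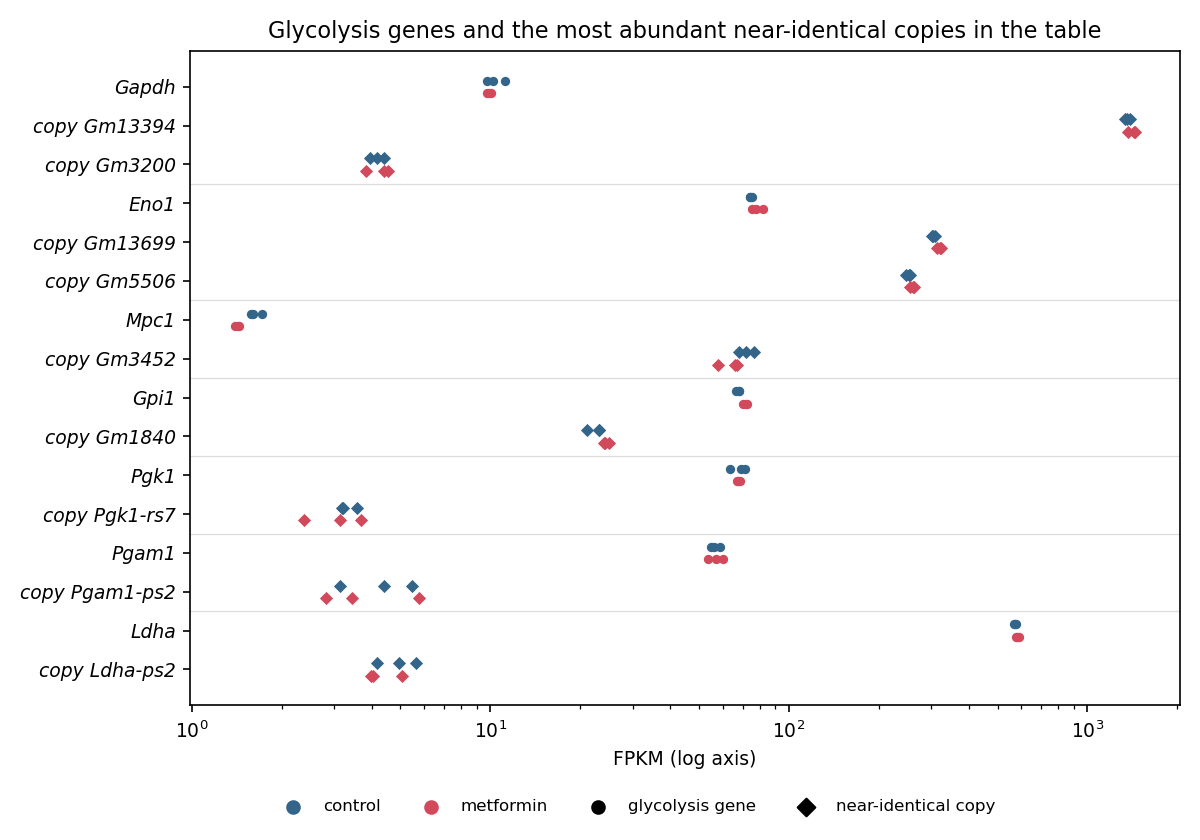
FPKM on a log axis of 7 glycolysis genes (circles) and of their most abundant near-identical copies with a mean of at least 2 FPKM (diamonds), control libraries in blue and metformin libraries in red. Gm13394 lies at 1337 FPKM or more in every library while Gapdh lies near 10, and the copies of Eno1 and Mpc1 also lie above their genes.

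**Figure D3:**
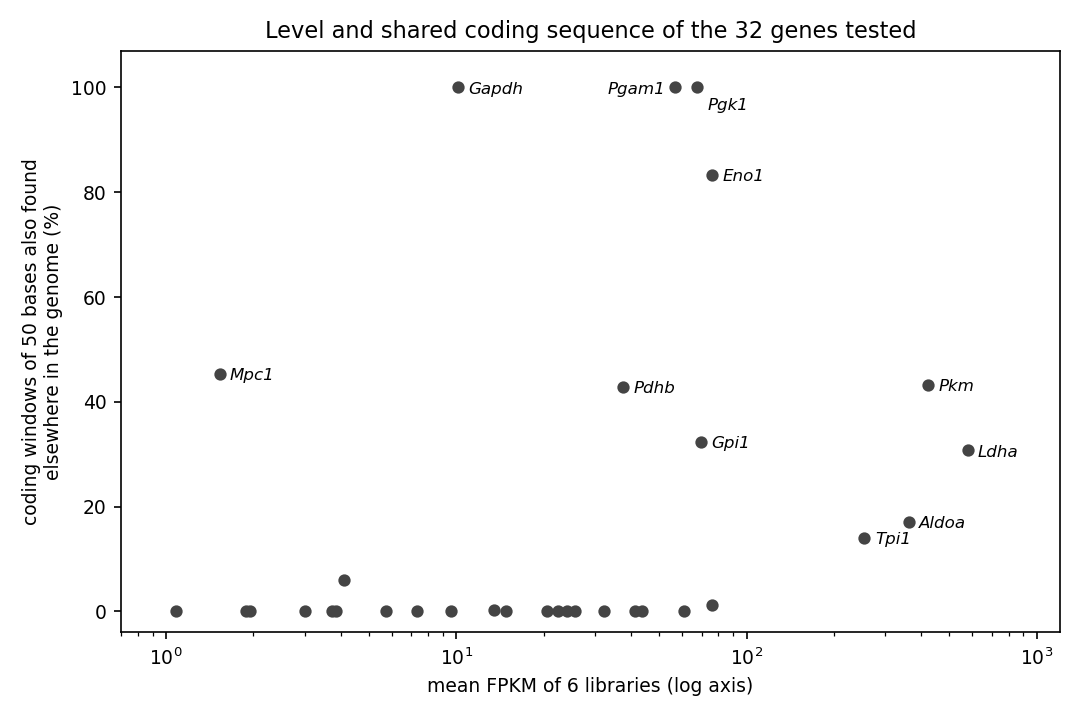
Share of the coding windows of 50 bases that also occur elsewhere in the genome, in percent, against the mean FPKM of 6 libraries on a log axis, 1 point for each of the 32 genes tested. Gapdh, Pgk1 and Pgam1 lie at 100% and Eno1 at 83.4%, and most of the other genes lie at or near 0%.

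Isozymes are separate genes for the same reaction that differ in regulation and in the tissue that uses them. The families used here are wider. Those of the pyruvate carrier and of pyruvate dehydrogenase hold partner subunits, and Bpgm is grouped with Pgam1. Shares in these families do not describe a choice between isozymes. Of 17 families, 12 held 2 or more of the 38 genes, and in 3 of them 1 gene gave over 99% of the summed FPKM: Aldoa for aldolase, Pkm for pyruvate kinase and Ldha for lactate dehydrogenase. Their partners were at or near 0. Aldoc, the brain aldolase, had 0.20 to 0.60 FPKM, Ldhb, the heart form of lactate dehydrogenase, was listed at 0 in 4 of 6 libraries and at 0.14 and 0.05 FPKM in the others, and Pklr, the pyruvate kinase of liver and red cells, was listed at 0 in all 6. Which splice form of Pkm was used, Pkm1 or the growth-associated Pkm2, is not resolved by a table with 1 value per gene, and a gene without a symbol on the same strand within the span of Pkm had 19.4 FPKM.

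Other families were mixed. Hk1 gave 59.2% ± 1.0 (SD, n = 3) of the hexokinase signal in the control and 60.0% ± 1.7 in the metformin group, Hk2 nearly all of the rest, and Hk3 did not exceed 0.04 FPKM in any library. Phosphofructokinase came from all 3 genes, with 44.4% from Pfkl (liver type), 32.9% from Pfkp (platelet type) and 22.7% from Pfkm (muscle type). Pfkp overlaps Pitrm1 on the opposite strand, which had 92.0 FPKM, and Pfkm overlaps Senp1 in the same way, with 6.34 FPKM. Other such pairs include Pfkfb2 (1.95 FPKM) with Yod1 (6.32), Pfkfb1 (1.08) with Apex2 (1.85) and Gapdh (10.1) with Iffo1 (6.20). The counting is not stated to use strand, so fragments of such pairs may be mixed. Pfkfb3, the form with the strongest kinase activity, gave 75.1% of the PFKFB signal, and Eno1 87.2% of the enolase signal when its copies were left aside. Pdk3 gave 55.4% and Pdk1 44.6% of the pyruvate dehydrogenase kinase signal, whereas Pdk2 did not exceed 0.05 FPKM and Pdk4, the starvation-induced kinase, was listed at 0 in all 6 libraries. Pdp2 gave 72.1% of the phosphatase signal and Mpc2 72.9% of the carrier signal with the copies of Mpc1 left aside. With these copies counted, the order turned and Mpc2 held 25.2% and Mpc1 74.8%.

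These shares were close in both groups. The share of Mpc2 was 70.9% ± 2.3 in the control and 74.9% ± 1.2 in the metformin group, and that of Pdk3 55.0% ± 0.4 and 55.8% ± 0.3 (SD, n = 3). In these 2 families the groups did not overlap, with an exact two-sided permutation p = 0.10, the smallest that 3 libraries against 3 can give, and an adjusted p = 0.60 over the 12 families (Benjamini-Hochberg). In the other 10 families the exact permutation p was 0.30 or more. With the copies of Mpc1 counted, the share of Mpc2 was 23.4% ± 0.4 in the control and 27.0% ± 2.5 in the metformin group (SD, n = 3).

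**Figure D4:**
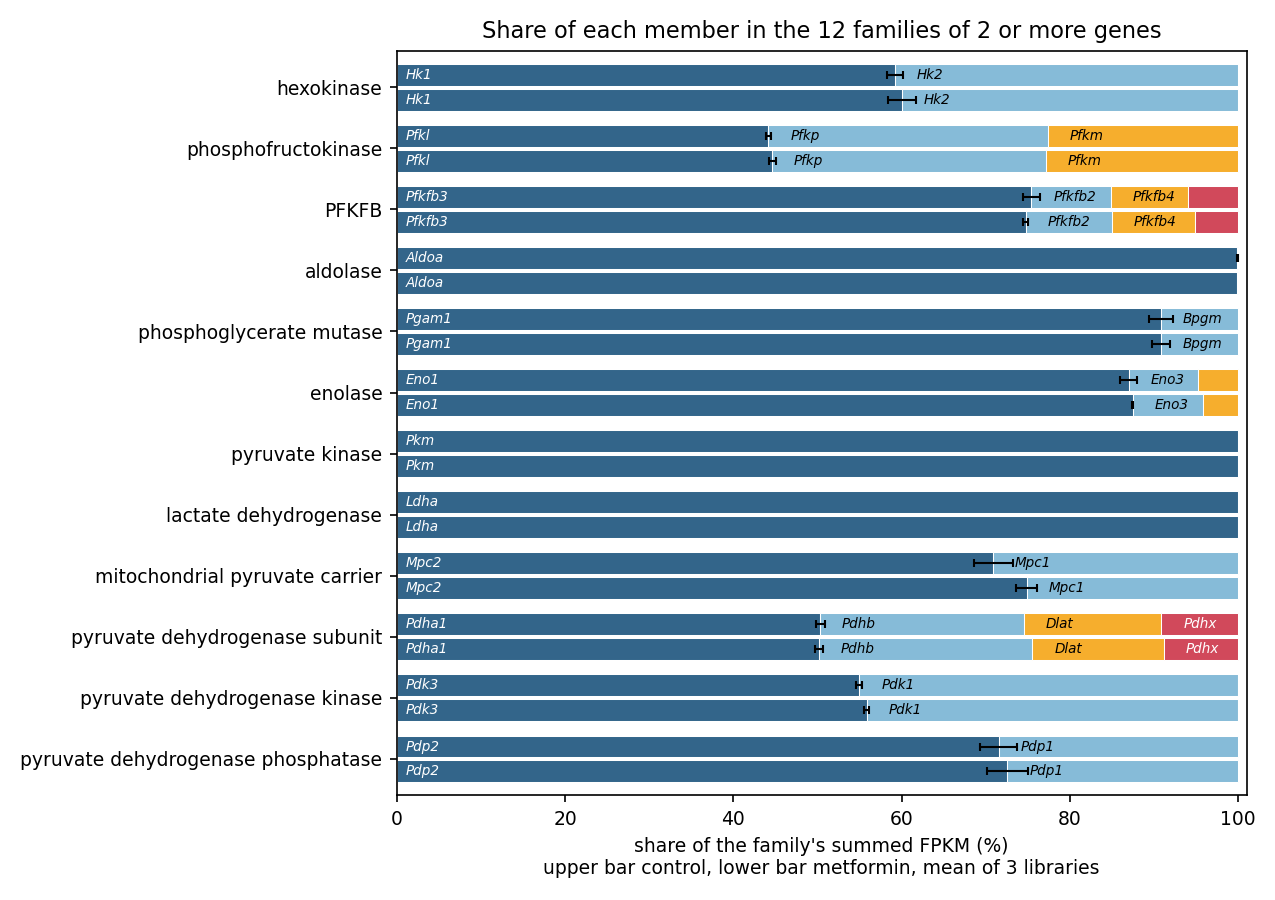
Share of each gene in the summed FPKM of its family, in percent, for the 12 families with 2 or more genes, upper bars control and lower bars metformin, as means of 3 libraries with the SD of the leading gene as error bar where it exceeds 0.05. Aldoa, Pkm and Ldha fill their bars, and the largest difference between the groups is the 3.98 percentage points of Mpc2.

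The comparison of metformin with control asked whether the drug changed the RNA of the route. None of the 32 tested genes passed an adjusted p of 0.05 in limma (0 higher, 0 lower), while 3 of all 10661 tested genes did (0.0281%). At an unadjusted p under 0.05, 5 of the 32 were higher (15.6%, against 6.03% of all tested genes) and 1 was lower (3.13%, against 4.81%). After quantile normalization 2 were higher (6.25%, against 5.24% of all tested genes) and 1 lower (3.13%, against 5.43%). In 8 of the 32 (25.0%) every metformin library lay above every control library, against 8.89% of all tested genes, and in 3 (9.38%) every one lay below, against 8.10%. Both counts were made on the FPKM as deposited and not after another scaling. Summed over all genes, FPKM ran from 317332 to 320754 between libraries. Narrow gaps, such as 0.03 FPKM for Pfkl, 0.14 for Pfkm and 0.16 for Ldha, may therefore not hold under another scaling. The median log2 fold change of the 32 genes was 0.022 and that of all tested genes 0.0041. Above 0 were 19 of the 32 (59.4%), against 52.3% of all tested genes. All differences were small, from -0.12 to 0.08 on the log2(FPKM + 1) scale, which understates changes of genes with low FPKM. Their standard errors ran from 0.016 to 0.11, with a median of 0.041. The genes share a pathway and libraries, so the counts describe the list and single out no property of it.

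**Figure D5:**
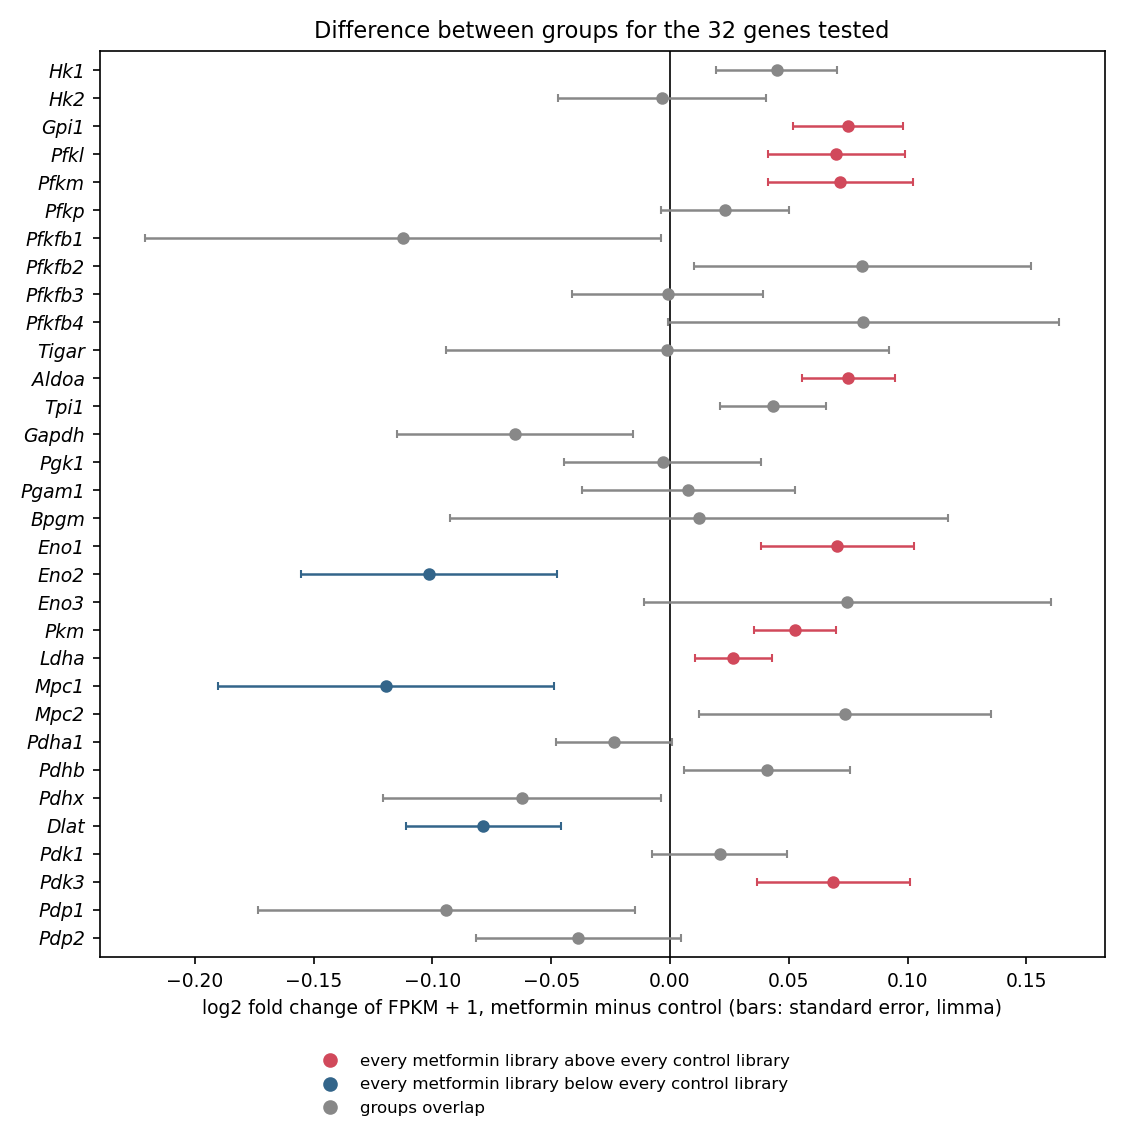
Log2 fold change of FPKM + 1, metformin minus control, for the 32 genes tested in pathway order, with the standard error from limma as bars and 3 libraries per group. Points in red and blue mark genes whose groups do not overlap, and every point lies between -0.12 and 0.08.

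In the upper part of the pathway, Aldoa, Gpi1, Pfkl and Pfkm were the genes whose groups stood apart in the FPKM as deposited. Aldoa (chr7:126795234-126800751, GRCm38), which splits fructose 1,6-bisphosphate, had 354.06, 354.39 and 350.25 FPKM in the control and 379.21, 364.53 and 371.81 FPKM in the metformin libraries. The difference was 0.08 ± 0.02 (log2 fold change ± SE, n = 3 per group), the smallest unadjusted p of the 32 genes, 0.0062, with an adjusted p = 0.346 (limma, Benjamini-Hochberg). Every metformin library of Aldoa lay above every control library.

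Gpi1, which turns glucose 6-phosphate into fructose 6-phosphate, had 66.66, 68.30 and 68.28 FPKM in the control and 71.64, 70.22 and 72.38 FPKM in the metformin libraries (log2 fold change 0.07 ± 0.02). Its groups did not overlap, and its adjusted p was 0.367 (limma). The copy Gm1840 also stood higher without overlap, with means of 22.4 ± 1.2 and 24.4 ± 0.5 FPKM (SD, n = 3; adjusted p = 0.394, limma).

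Pfkl had 44.10, 41.84 and 42.01 FPKM in the control and 45.26, 44.13 and 45.05 FPKM in the metformin libraries, and only 0.03 FPKM separated the groups. Pfkm had 22.34, 21.72 and 21.41 FPKM in the control and 22.48, 23.05 and 23.43 FPKM with metformin. Both had a log2 fold change of 0.07 ± 0.03, with adjusted p-values of 0.450 and 0.458 (limma), and the third gene of the family, Pfkp, had 0.02 ± 0.03 with overlapping groups.

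The hexokinases, the PFKFB genes and Tigar overlapped between the groups. Hk1 had 59.65, 59.40 and 61.29 FPKM in the control and 61.02, 61.68 and 63.46 FPKM with metformin (0.05 ± 0.03), and Hk2 had means of 41.5 ± 1.6 and 41.4 ± 2.0 FPKM (SD, n = 3). Pfkfb3 had 14.97, 14.83 and 14.55 FPKM in the control and 13.97, 15.12 and 15.26 FPKM with metformin, equal means of 14.8 FPKM. Tigar had 2.98, 3.17 and 2.83 FPKM in the control and 3.35, 2.48 and 3.19 FPKM with metformin. Pfkfb1, Pfkfb2 and Pfkfb4 stayed between 0.79 and 2.19 FPKM in all libraries, on about 60, 275 and 108 fragments per library. Hk1 had the smallest adjusted p of these 7 genes, 0.560 (limma).

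From triose phosphate to pyruvate, Tpi1, Eno1 and Pkm had higher means with metformin, and Gapdh, Pgk1 and Pgam1 showed no common direction. Tpi1 had 255.56, 246.90 and 250.24 FPKM in the control and 259.59, 253.32 and 262.85 FPKM with metformin (0.04 ± 0.02), with 1 control library above the lowest metformin library. Pgk1, the first step that makes ATP, had 63.46, 69.02 and 71.04 FPKM against 67.47, 66.78 and 68.61 FPKM, so that the control libraries spread on both sides of the metformin libraries. Pgam1 had 55.03, 56.05 and 58.81 FPKM against 53.71, 60.12 and 57.10 FPKM. Bpgm, which makes the 2,3-bisphosphoglycerate of red cells, had means of 5.69 ± 0.80 and 5.74 ± 0.72 FPKM (SD, n = 3).

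Pkm (chr9:59656368-59679375, GRCm38) had 415.47, 414.33 and 416.66 FPKM in the control and 437.16, 430.95 and 424.91 FPKM with metformin. The groups did not overlap, with a log2 fold change of 0.05 ± 0.02 and an adjusted p = 0.377 (limma). The control libraries of Pkm were within 2.33 FPKM of each other, while the metformin libraries spread over 12.25 FPKM.

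Eno1 had 74.09, 73.91 and 74.99 FPKM in the control and 81.62, 75.06 and 77.76 FPKM with metformin (0.07 ± 0.03, adjusted p = 0.484, limma), and its groups were only 0.07 FPKM apart. Its copy Gm13699 had 304.47, 307.53 and 302.65 FPKM against 320.85, 312.96 and 322.69 FPKM (0.06 ± 0.02, adjusted p = 0.350, limma), and Gm5506 had means of 251 ± 4.1 and 260 ± 3.9 FPKM (SD, n = 3), both without overlap. Eno2, the neuronal enolase, was among the 3 genes that lay lower in every metformin library, with 4.25, 3.84 and 4.01 FPKM against 3.68, 3.82 and 3.57 FPKM (-0.10 ± 0.05, adjusted p = 0.535, limma). Eno3, the muscle enolase, had 7.11 ± 0.89 and 7.51 ± 0.48 FPKM (SD, n = 3).

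For Gapdh the sign of the difference depended on the copies. Taken alone it had a log2 fold change of -0.07 ± 0.05 (adjusted p = 0.676, limma) with overlapping groups. Gm13394 had 0.05 ± 0.03 (adjusted p = 0.4996, limma), with the highest control library above the lowest metformin library, and Gapdh with all copies counted had 0.05 ± 0.03 (adjusted p = 0.521, limma). No direction can therefore be given for Gapdh.

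Ldha (chr7:46841475-46855627, GRCm38), which reduces pyruvate to lactate, had 567.91, 571.09 and 576.70 FPKM in the control and 582.04, 589.00 and 576.86 FPKM in the metformin libraries. The groups were 0.16 FPKM apart, with a log2 fold change of 0.03 ± 0.02 and an adjusted p = 0.582 (limma). In every library Ldha stood 7.35-fold to 8.02-fold above Pdha1, the subunit that carries the regulated sites of pyruvate dehydrogenase.

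For pyruvate entry, 4 of the 10 tested genes were above 0 and 6 below, with a median log2 fold change of -0.03, while 12 of the 16 tested genes from hexokinase to pyruvate kinase were above 0, with a median of 0.04. No test of this difference was made, and no gene of either set passed the adjusted threshold. Dlat, the acetyl transferase core (E2) of the complex, had 25.06, 24.41 and 24.82 FPKM in the control and 22.79, 23.11 and 24.32 FPKM with metformin. It was the only one of the 32 genes that was lower at an unadjusted p under 0.05, with a log2 fold change of -0.08 ± 0.03 and an adjusted p = 0.455 (limma). Its groups were 0.09 FPKM apart.

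The other subunits overlapped between the groups. Pdha1 had 75.66, 77.71 and 75.86 FPKM in the control and 75.96, 73.42 and 76.10 FPKM with metformin (-0.02 ± 0.02). Pdhb, the second subunit of the same E1 enzyme, had 36.9 ± 1.6 and 37.97 ± 0.58 FPKM, and Pdhx, which tethers the E3 enzyme, had 13.9 ± 1.1 and 13.2 ± 0.5 FPKM (SD, n = 3).

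Among the kinases that switch the complex off, Pdk3 had 25.34, 25.41 and 24.15 FPKM in the control and 26.85, 25.65 and 26.20 FPKM with metformin, without overlap (0.07 ± 0.03, adjusted p = 0.494, limma). Pdk1 had 20.4 ± 0.3 and 20.7 ± 0.4 FPKM (SD, n = 3), with overlapping groups. The phosphatase Pdp2 had 9.84, 9.80 and 9.51 FPKM against 9.94, 9.37 and 9.01 FPKM (-0.04 ± 0.04), and Pdp1 had 3.87 ± 0.35 and 3.57 ± 0.35 FPKM (SD, n = 3).

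The carrier genes had low values. Mpc2 had 3.71, 4.01 and 4.24 FPKM in the control and 4.47, 4.27 and 4.0 FPKM with metformin (0.07 ± 0.06). Mpc1, given here after its values were seen, had 1.72, 1.60 and 1.58 FPKM against 1.40, 1.44 and 1.43 FPKM, lower without overlap, on about 44 fragments per library (-0.12 ± 0.07, adjusted p = 0.576, limma). Its copy Gm3452 was also lower without overlap, with 67.82, 72.03 and 76.72 FPKM against 57.86, 66.14 and 66.96 FPKM (-0.18 ± 0.07, adjusted p = 0.404, limma). Counted together, Mpc1 and its copies had a log2 fold change of -0.17 ± 0.06 (adjusted p = 0.387, limma).

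Genes of the branches that leave or feed glycolysis, and targets of hypoxia-inducible factors outside glycolysis, were read from the same fit. Of 55 such genes in 6 lists, 46 were tested and 0 passed the adjusted threshold (smallest adjusted p = 0.228, limma). At an unadjusted p under 0.05, 8 were higher (17.4%, against 6.03% of all tested genes) and 0 lower (against 4.81%), and the median log2 fold change of the 46 was 0.0080. Of these 8, 5 were in the list of hypoxia-inducible factor targets, which held 13 of the 46 tested genes. The 17.4% is therefore not a property of the branches alone. The calls come from the fit without rescaling and were not counted under the other scalings. Of the 8 genes of the pentose phosphate pathway, which makes NADPH and ribose, 3 stood higher without overlap (37.5%, against 8.89% of all tested genes): Tkt with 110 ± 1.8 and 116 ± 4.4 FPKM, Taldo1 with 118 ± 0.8 and 122 ± 2.9 FPKM, and Pgd with 54.8 ± 1.5 and 56.7 ± 0.3 FPKM (SD, n = 3). Tkt and Taldo1 pass sugars back to glycolysis, and Pgd makes NADPH. Their adjusted p-values were 0.404 to 0.528 (limma).

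Gluconeogenesis reverses glycolysis at its one-way steps. Pck2, the mitochondrial enzyme that makes phosphoenolpyruvate, had 11.1 ± 0.6 and 12.5 ± 0.7 FPKM (0.16, adjusted p = 0.390, limma) without overlap, Pcx, pyruvate carboxylase, had 13.1 ± 0.9 and 14.4 ± 0.6 FPKM, and G6pc3 had 9.57 ± 0.92 and 10.7 ± 1.1 FPKM (SD, n = 3), both with overlap. The liver genes Pck1 and G6pc were listed at 0 in all 6 libraries. Fbp2, the muscle form of fructose 1,6-bisphosphatase, was singled out after its values were seen: it had 329 to 350 FPKM, 3.48-fold the sum of Pfkl, Pfkm and Pfkp (3.27-fold to 3.68-fold in single libraries), while Fbp1, the liver form, did not exceed 0.13 FPKM. Muscle markers summed to 0.11 to 0.35 FPKM in the same libraries, and no window of the Fbp2 coding sequence occurred elsewhere in the genome.

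In the list of hypoxia-inducible factor targets outside glycolysis, 13 of 16 genes were tested. Without overlap, 5 stood higher (38.5%, against 8.89% of all tested genes) and 2 lower (15.4%, against 8.10%), with a median log2 fold change of 0.03. Hilpda, a lipid droplet protein, had 6.15 ± 0.49 and 8.37 ± 0.26 FPKM (log2 fold change 0.39, adjusted p = 0.228, limma), Ndrg1 3.70 ± 0.04 and 4.60 ± 0.23 FPKM (0.25, adjusted p = 0.300, limma), and Egln3, a prolyl hydroxylase, 19.8 ± 1.1 and 21.8 ± 0.3 FPKM (0.14, adjusted p = 0.369, limma; SD, n = 3). P4ha1 and Kdm3a, named after their values were seen, were the 2 lower genes, with 7.66 ± 0.28 and 7.13 ± 0.13 FPKM and with 6.66 ± 0.34 and 6.23 ± 0.25 FPKM (SD, n = 3). Hilpda and Ndrg1 had larger log2 fold changes than any of the 32 glycolysis genes, with or without copies counted. The glycogen, hexosamine and glycerol phosphate lists had no gene at an unadjusted p under 0.05 among 21 tested. Ugp2 and Gyg led the glycogen list with unadjusted limma p-values of 0.099 and 0.2004, Uap1, Oga and Pgm3 the hexosamine list with 0.150 to 0.429, and Gpd1l, Sord and Gpd2 the glycerol phosphate list with 0.10 to 0.34.

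Glycolysis genes are classical targets of hypoxia-inducible factors, whose binding site holds the letters ACGTG. In the RefSeq promoters of GRCm38.p6, from 250 bases before to 50 bases after the start, ACGTG on either strand occurred in 17 of 37 matched genes (45.9%), in 31.2% of 6836 tested genes with a promoter and in 21.8% of all 27025 genes. CACGTG, which contains ACGTG on both strands, occurred in 6 of the 37 (16.2%), in 12.5% of the tested genes and in 8.09% of all genes. One window is shown for each of the 3 genes with the highest level, with ACGTG, or its reverse CACGT, in capitals.
Ldha, chr7:46845745-46845773, plus strand: ggcccagcctacACGTGggttcccgcacg
Aldoa, chr7:126799364-126799392, minus strand: tgtggctcgagtCACGTcctagcggggcg
Pkm, chr9:59657140-59657168, plus strand: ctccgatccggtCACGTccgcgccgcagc
Such a match is a string of letters and not a bound site. Of the 8 genes that were higher without overlap, Pfkm, Aldoa, Pkm, Ldha and Pdk3 held ACGTG in this window, and Gpi1, Pfkl and Eno1 did not. Tested genes outside these 8 held it too: Hk1, Hk2, Pfkfb2, Pfkfb3, Gapdh, Pgk1, Pgam1, Pdhb and Pdp2. Whether the letters go with a difference between the groups was not tested.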

How the data were processed

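Conditions came from the sample labels. The authors deposited FPKM values, rounded to 2 decimals, for 55401 Ensembl genes in 6 libraries, with positions on GRCm38 (99.5% of 23252 genes overlapped RefSeq), whereas the submitters' processing notes name mm9, HISAT2 and DESeq2. The counter and the handling of multiple matches are not given in the sources used here. The labels name a stranded kit and the paper another kit, and use of strand in counting is not stated.

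The 10661 genes averaging 1 FPKM or more were tested as log2(FPKM + 1) with limma 3.58.1 (R 4.3.3, trended moderation, two-sided, Benjamini-Hochberg over all 10661, threshold 0.05), without a replicate block. Depth was estimated from single-exon genes shorter than 400 bases. The fit was tested on simulated data. Coding sequences of GENCODE M1 were searched on NCBIM37 with BLAST 2.17.0 and by exact windows. Exon lengths came from GENCODE M1. Symbols were matched for 32589 genes, and 4 of the 38 through RefSeq synonyms.

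The 38 genes and all lists were chosen with earlier results of these data known. Values per library are given for the highest gene of each family and the 10 with the smallest p, and up to 3 genes are named from each other list, of which 1 is not reported here. Counting copies with their gene was added after seeing the data.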

Additional observations from a re-analysis of the deposited data

How the results depend on the processing

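Of the 38 genes, 0 passed the adjusted threshold under any of the 15 alternatives. The 3 genes called over the whole table became 7 without a filter on low values, where more genes were tested. The median log2 fold change of the glycolysis genes, 0.022, was 0.010 without the filter, 0.011 after quantile normalization, and 0.023 to 0.036 with single libraries left out, of which metformin repeats 1 and 2 moved it most (0.036 and 0.033). With single libraries left out, Pfkfb3 ranged from -0.023 to 0.037, Tigar from -0.064 to 0.097, Pgk1 from -0.050 to 0.030 and Pgam1 from -0.031 to 0.049. Gapdh turned from -0.065 to 0.052 with its copies counted. Unadjusted calls among the 32 genes, 6 in all, fell to 4 after rescaling to the same sum (3 higher, 1 lower) and to 3 after quantile normalization or without the trend (2 higher, 1 lower), and came to 8 with copies counted (6 higher, 2 lower). Over all tested genes they were 643 higher and 513 lower, but 568 and 584 after rescaling and 559 and 579 after quantile normalization, and no sign of the 32 genes changed under the 3 other scalings.

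No shared signal by repeat number was seen, since same-numbered libraries correlated at -0.032, 0.018 and 0.048 in their deviations from the group means. With 3 libraries per group, this cannot decide whether the cultures were paired. A replicate block left the 38 genes at 0 calls and gave 4 unadjusted calls. Summing FPKM by a length from the deposited table was not run, because no such length was used here. Among the 32 tested genes, depth limits Mpc1, Pfkfb1 and Pfkfb4 most, with about 44, 60 and 108 fragments per library.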
